A study of Mus musculus with 24 samples.

Results

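Imprinted genes were followed in the hippocampus of the children and grandchildren of male mice fed a diet rich in methyl donors. A list of 42 mouse imprinted genes was set by name, and each was read through every probe whose annotated accession mapped to the symbol of the gene. Of 39429 probes, 13374 mapped to no symbol. Probes were found for 41 of the 42 genes, among 19751 symbols on the array, and no probe mapped to H19 in this way. Of the 42 genes, 22 were counted as expressed from the paternal allele and 18 as expressed from the maternal allele. The other 2, Grb10 and Gnas, are expressed from an allele that depends on the cell type or the transcript.

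An imprinted gene is transcribed mainly from the copy inherited from 1 parent, although both copies can carry the same sequence. The choice is set by DNA methylation laid down in the egg or the sperm at imprinting control regions, and zinc-finger proteins such as ZFP57 and ZFP445 help to keep it after fertilization. Imprinted genes lie in clusters, often with paternally and maternally expressed neighbours, and many of them govern growth, placental function and the development of neurons.

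RNA was measured on 24 single-colour arrays, 6 for each of 4 groups, and each array carried a pool of hippocampal RNA from 4 mice aged 4 weeks. Founder males received either control diet (CD) or the methyl donor diet 3MS ZM (MD) during 6 weeks before mating. To each kilogram of chow the MD added zinc (150 mg), vitamin B12 (1.5 mg), folic acid (15 mg), betaine and choline (15 g of each) and the amino acid l-methionine (7.5 g). F1 mice came from C57BL/6J males and 129S6/SvEv females. F2 mice came from CD or MD F1 males and CD F1 females, so each F2 mouse carried its own mix of both strains. The labels of F2 also carry a code whose meaning is not given, lh on replicates 1, 2 and 3 and rh on the rest.

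Every slide held 2 arrays of each diet from 1 generation, 3 slides per generation, so a slide could be set against the diets. The F1 and F2 arrays were also scanned on different days, so generation, slide and scan day cannot be told apart. The median raw intensity lay between 251 and 318 on CD F1 arrays, 167 and 262 on MD F1 arrays, 151 and 262 on CD F2 arrays, and 148 and 262 on MD F2 arrays. Between 33926 and 37013 spots of a CD F1 array were above background, against 34040 to 35585 in MD F1, 28000 to 34661 in CD F2 and 27383 to 33742 in MD F2. No array had a saturated spot. MD F1 replicate 6 stood apart from the other F1 arrays, with a mean correlation of 0.985 to them where every other F1 array reached at least 0.992. CD F2 replicate 6 and MD F2 replicate 3 stood apart in F2, with mean correlations of 0.977 and 0.974 where the others reached at least 0.986.

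The tissue was checked with 10 marker genes of hippocampal neurons, all above background on every array except MD F2 replicate 3, which had 9. Their summed log2 signal had a median of 16.07 in CD F1, 15.96 in MD F1, 16.02 in CD F2 and 15.93 in MD F2, and Zbtb20, a transcription factor of pyramidal neurons, was the brightest of them on all arrays but 1. The sum was lowest in F1 on MD F1 replicate 6, at 15.54. Every CD F1 sum but that of replicate 3, 15.95, lay above the highest MD F1 sum, 16.0003. Markers of tissue that borders the hippocampus varied more. The 10 choroid plexus markers, led by transthyretin (Ttr), summed to 12.0025, 15.98 and 16.67 (lowest, median and highest) in CD F1 and to 12.05, 16.60 and 17.84 in MD F1. In F2 the same sum ran 11.44, 17.84 and 18.14 in CD and 11.68, 13.13 and 17.76 in MD. All 10 were above background on F1 arrays and 7 to 10 of them on F2 arrays, and in each group at least 1 pool held little choroid plexus RNA and at least 1 held much. In a pool of tissue, fewer cells of a type and less RNA per cell cannot be told apart.

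Most imprinted genes were transcribed in the hippocampus. Of the 41 genes with a probe, 35 had their brightest probe above background on all 24 arrays, 5 on some arrays (Rtl1, Peg10, Zim1, Asb4 and Calcr) and 1, the placental growth regulator Phlda2, on none. Phlda2 was left out of the comparisons, and 40 genes remained, 22 paternally and 16 maternally expressed besides Grb10 and Gnas. The brightest probe stood for its gene, and 20 genes had further probes, 67 probes in all. Levels are log2 of the background-corrected signal after quantile normalization within a generation, so the levels of F1 and F2 are not on a shared scale. The probes read the RNA of both alleles together, and which allele it came from was not measured.

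In F1, which asks about the children of MD males, Mest, Peg3, Peg10 and Inpp5f were lower in MD and Ascl2 and Calcr higher at unadjusted p under 0.05. The first 4 were counted as paternally and the other 2 as maternally expressed. Whether the direction differed by parental allele was not tested, and dimmer probes of the maternally expressed genes Trappc9 and Herc3 were lower in MD F1. None of the 40 genes passed the limma test at a false discovery rate under 0.1 adjusted over all probes, a test that 13 of 39429 probes passed (0.033%). At unadjusted p under 0.05 there were 6 of 40 (15%), against 14.4% of all probes. The 4 lower genes stood beside 7.48% of all probes, and the 2 higher genes beside 6.96%. Mest was the only gene whose diet groups did not overlap, beside 1.79% of all probes. The log2 fold change of MD against CD was negative for 22 genes and positive for 18, with a median of -0.02 and a range from -0.93 to 0.82, and 27 genes lay within 0.2 of 0. Over all probes the median was 0.0065. With no normalization the median over all probes was -0.28, 7952 probes passed the limma test, and so did 6 of the 40 genes.

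Taken by parental allele, the 22 paternally expressed genes of F1 had 14 negative and 8 positive changes and a median of -0.04, and 4 of them (18.2%) were at unadjusted p under 0.05, against 14.4% of all probes. The 16 maternally expressed genes had 6 negative and 10 positive changes and a median of 0.06, and 2 (12.5%) were at unadjusted p under 0.05, against the same 14.4%. The medians moved with the arrays and the scaling. With 1 array left out at a time, the paternal median lay between -0.10 (without MD F1 replicate 4) and -0.016 (without MD F1 replicate 3). The maternal median lay between -0.0063 (without MD F1 replicate 6) and 0.08, and with no normalization the medians were -0.33 and -0.18, so that the maternal median turned negative. Leaving out MD F1 replicate 6 brought 1 gene, Mest, past the limma test, which 152 of all 39429 probes then passed, and leaving out MD F1 replicate 4 brought 11 genes to unadjusted p under 0.05, beside 15% of all probes. Over the 12 fits with 1 array left out, the unadjusted p was not under 0.05 in 8 for Calcr, 3 for Peg10, 1 each for Peg3 and Inpp5f, and 0 for Mest and Ascl2.

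In F2, which asks about the grandchildren, Mest and Asb4 were lower and Commd1 higher in MD at unadjusted p under 0.05. These 3 of 40 genes (7.5%) stood beside 5.6% of all probes, the 2 lower genes beside 2.38% and the 1 higher gene beside 3.22%. By limma 0 of the 40 genes passed the test, as did 0 of all 39423 probes (0%). No gene had groups that did not overlap, beside 0.365% of all probes. The change was negative for 24 genes and positive for 16, with a median of -0.04 and a range from -0.76 to 0.22, against a median of 0.015 over all probes. Paternally expressed genes had a median of -0.05 and maternally expressed genes -0.04. With 1 array left out these ran from -0.08 to -0.014 (without MD F2 replicate 6) and from -0.07 to -0.014 (without MD F2 replicate 3). Leaving out CD F2 replicate 6, or MD F2 replicate 2, brought 5 genes to unadjusted p under 0.05, beside 6.28% and 6.79% of all probes. Over the 12 fits with 1 array left out, the unadjusted p was not under 0.05 in 6 for Commd1, 4 for Asb4 and 0 for Mest.

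**Figure D1:**
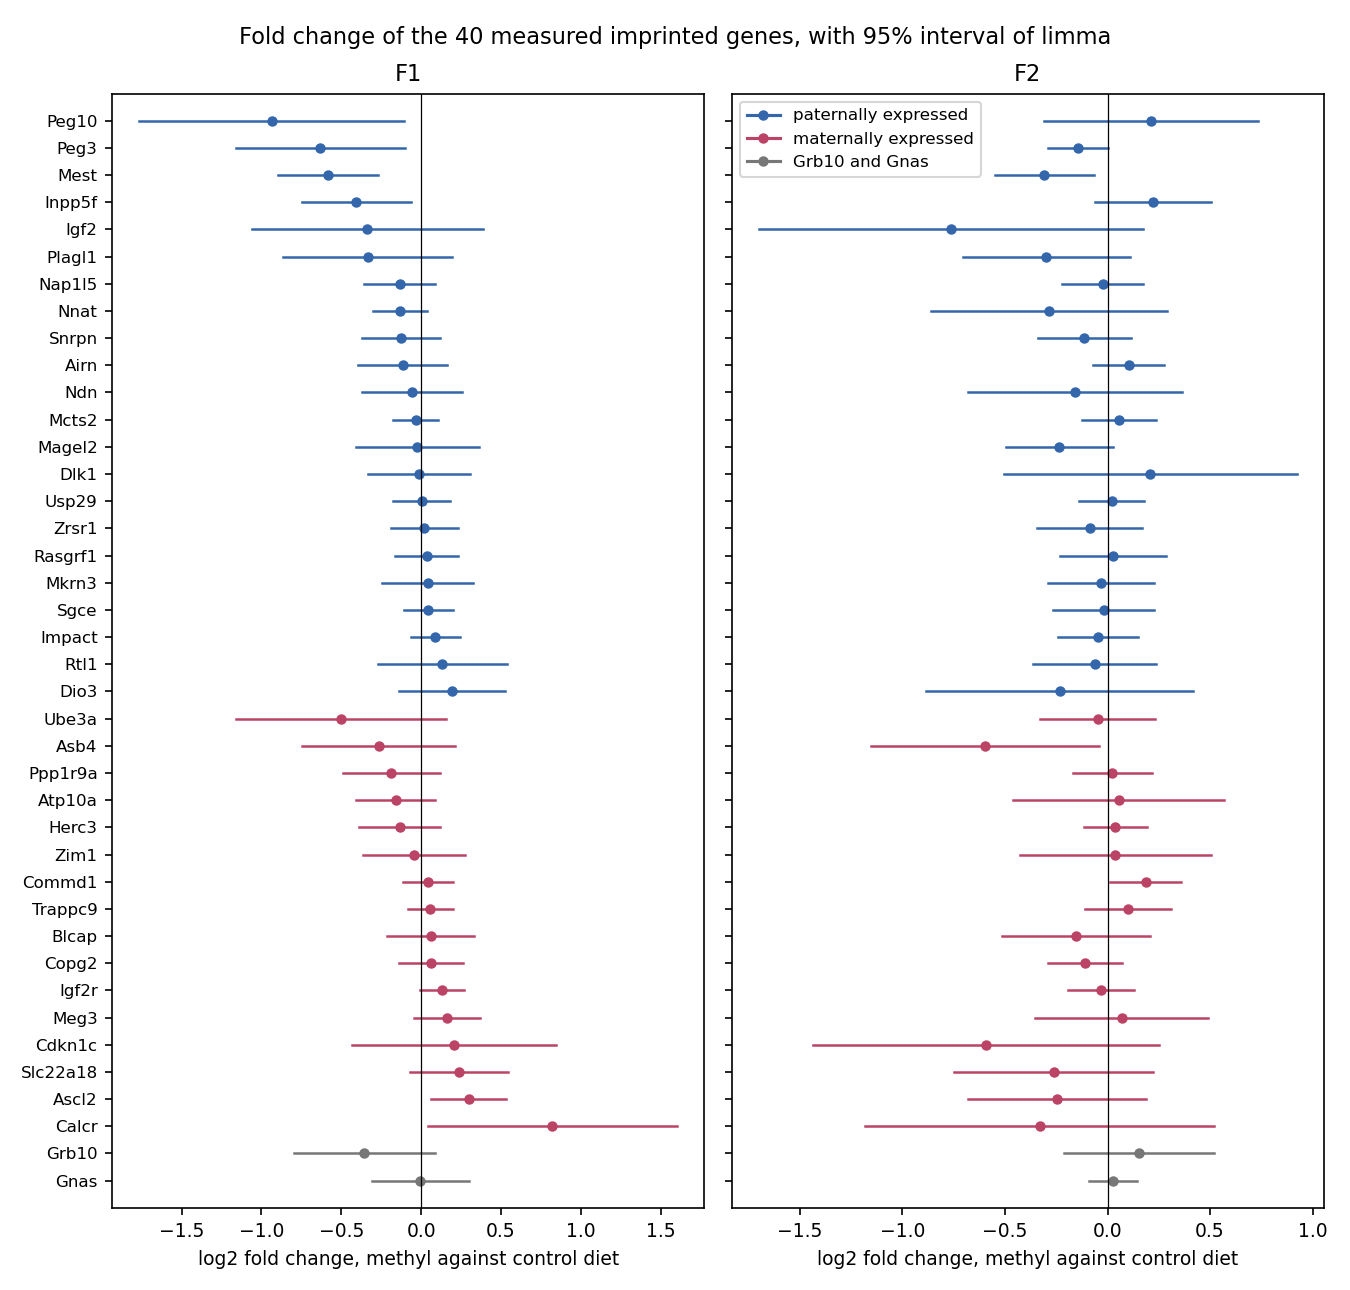
Log2 fold change of MD against CD for the brightest probe of each of the 40 measured imprinted genes in F1 and in F2, drawn as points with the limma 95% interval; paternally expressed genes are blue, maternally expressed genes red, and Grb10 and Gnas grey. In F1 the points run from -0.93 (Peg10) to 0.82 (Calcr) and in F2 from -0.76 (Igf2) to 0.22 (Inpp5f), and with no normalization the F1 median over all probes moved to -0.28.

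Whether a diet effect differed between generations was tested by the interaction, the F1 effect minus the F2 effect with all 24 arrays normalized together. By limma 0 of the 40 genes passed, against 0.0127% of all probes. At unadjusted p under 0.05 there were 4 (10%, against 8.29% of all probes). Inpp5f and Peg10 were negative, beside 4.59% of all probes, and Ascl2 and Calcr positive, beside 3.7%. With 1 of the 24 arrays left out, the unadjusted p was not under 0.05 in 14 fits for Calcr, 3 for Ascl2 and 0 for Inpp5f and Peg10. The median was 0.0056 over the 40 genes, 0.0056 over paternally expressed genes, 0.13 over maternally expressed genes and -0.013 over all probes. Further probes were present for 20 genes, 67 probes in all with the brightest. Among the further probes, 4 were at unadjusted p under 0.05 in the interaction, beside 8.29% of all probes. They were 1 each of Trappc9, Mkrn3, Mest and Herc3, with limma adjusted p of 0.450, 0.538, 0.547 and 0.578.

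Mest, a paternally expressed enzyme of the hydrolase fold found in the endoplasmic reticulum and tied to growth and maternal behaviour, was lower in MD in both generations on its brightest probe, A_55_P2090025. In F1 the log2 levels were 10.58, 10.74 and 10.998 (lowest, median and highest of 6 arrays) in CD and 9.51, 10.24 and 10.51 in MD. Every MD array lay below every CD array, and MD F1 replicate 6 was the lowest. This gave a log2 fold change of -0.58 (SE 0.14), a level 1.50 times lower in MD, with a limma adjusted p of 0.198 and an exact permutation p of 0.00216, the smallest that 6 arrays against 6 allow. It was -0.95, -0.37 and -0.43 within the 3 slides, the first of which held MD F1 replicate 6, and limma with slide as a block gave an adjusted p of 0.245. Without MD F1 replicate 6 it was -0.45 and the limma adjusted p 0.0970. Over the arrays left out 1 at a time the limma adjusted p ran from 0.0970 to 0.368, and over the other alternatives from 0.0618 to 0.887. Mest also passed the limma test with array weights and with no normalization, where 540 and 7952 of all probes passed.

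In F2 the Mest levels were 9.84, 10.08 and 10.29 in CD and 9.40, 9.83 and 10.03 in MD. The lowest MD arrays lay below every CD array, and the others overlapped with CD. In log2 the change was -0.31 (SE 0.11), 1.24 times lower, with a limma adjusted p of 0.89 and an exact permutation p of 0.0152. It was -0.48, -0.28 and -0.17 within the slides, and limma with slide as a block gave an adjusted p of 0.785. The interaction was -0.27, with a limma adjusted p of 0.743 and, with slide as a block, 0.722, and without MD F1 replicate 6 it was -0.14.

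Of the gene's other probes, A_51_P124535 differed from the brightest in F1 and A_55_P2151868 did not. A_51_P124535 had levels of 10.08, 10.19 and 10.29 in CD F1 and 9.95, 10.15 and 10.40 in MD F1. The MD arrays spanned the CD arrays, and the log2 fold change was -0.03 with a limma adjusted p of 0.887. In F2 this probe read 9.50, 10.13 and 10.28 in CD and 9.30, 9.60 and 9.86 in MD. There 4 CD arrays lay above every MD array, with a change of -0.43, a limma adjusted p of 0.89 and an exact permutation p of 0.0303. Its interaction had the opposite sign to that of the brightest probe, 0.40, with a limma adjusted p of 0.547. The dimmest Mest probe, A_55_P2151868, had no overlap between the diets in either generation. Its levels were 7.76, 7.90 and 8.003 in CD F1 and 6.80, 7.44 and 7.69 in MD F1, then 7.88, 7.95 and 8.32 in CD F2 and 7.59, 7.72 and 7.80 in MD F2. The 95% interval of the change ran from -0.79 to -0.24 in F1, with a limma adjusted p of 0.198, and from -0.51 to -0.13 in F2, with a limma adjusted p of 0.89. In F1 it passed the limma test without MD F1 replicate 6 (adjusted p 0.0956), with array weights, with all 24 arrays fitted together and with no normalization. Of all probes, 152, 540, 73 and 7952 passed in these settings in the same order, against 13 in the first fit. Over all settings the limma adjusted p of this probe ran from 0.0659 to 0.402. Which Mest transcripts each probe reads was not tested.

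**Figure D2:**
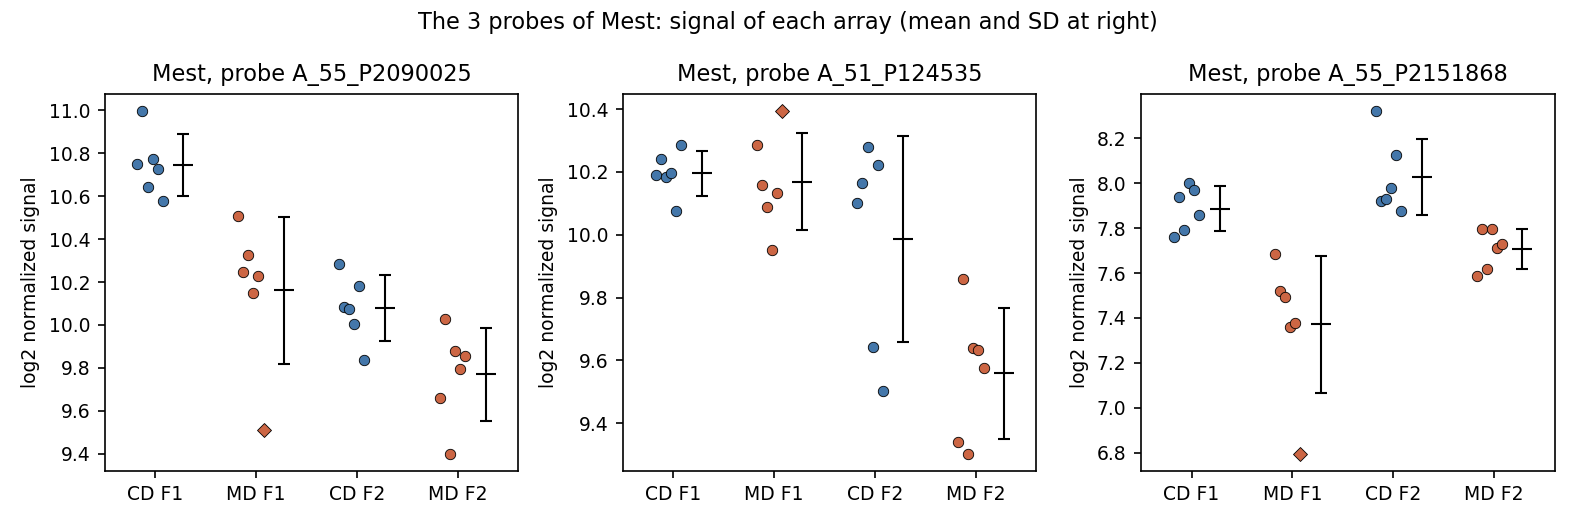
Log2 normalized signal of the 3 Mest probes, each array a point with the group mean and SD, CD in blue and MD in orange; MD F1 replicate 6 is the diamond. The brightest probe A_55_P2090025 and the dimmest A_55_P2151868 have all MD F1 arrays below all CD F1 arrays, while A_51_P124535 has medians of 10.19 in CD F1 and 10.15 in MD F1.

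Among transcription factors, Peg3 encodes a large zinc-finger protein expressed from the paternal allele and active in neurons of the brain and in the placenta. Its brightest probe, A_52_P235861, read 10.42, 10.73 and 11.26 in CD F1 and 9.13, 10.19 and 10.703 in MD F1. The highest MD arrays overlapped the lower CD arrays, and MD F1 replicate 6 was the lowest. The log2 fold change was -0.63 (SE 0.24), with a limma adjusted p of 0.294 and an exact permutation p of 0.0216. Within slides it was -1.20, -0.38 and -0.32, and limma with slide as a block gave an adjusted p of 0.322. Without MD F1 replicate 6 it was -0.42, and over the arrays left out 1 at a time the limma adjusted p ran from 0.238 to 0.451. A further probe, A_55_P2163319, read 8.21, 8.35 and 8.66 in CD F1 and 6.99, 7.97 and 8.10 in MD F1, without overlap. Its change was -0.55, with a limma adjusted p of 0.235 and an exact permutation p of 0.00216. In F2 the brightest probe read 12.05, 12.22 and 12.33 in CD and 11.97, 12.05 and 12.17 in MD. These F2 groups overlapped and were narrow, with a change of -0.14, a limma adjusted p of 0.892 and an exact permutation p of 0.0260.

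Plagl1, a paternally expressed zinc-finger factor that restrains cell growth and binds other imprinted genes, read 10.97, 11.13 and 11.40 in CD F1 and 9.79, 11.05 and 11.50 in MD F1. MD F1 replicates 5 and 6 lay below all CD arrays, 1 MD array lay above them and the rest among them. The change was -0.34, with a limma adjusted p of 0.529, and without MD F1 replicate 6 it was -0.13. In F2 it read 12.43, 12.75 and 12.97 in CD and 11.86, 12.45 and 12.96 in MD, with overlap, a change of -0.30 and a limma adjusted p of 0.916, and without MD F2 replicate 3 the change was -0.19. Of the 3 further Plagl1 probes, 2 had the sign of the brightest in each generation. The second-brightest, A_52_P532456, lay on its side in both, with intervals from -0.90 to 0.13 in F1 (limma adjusted p 0.461) and from -0.83 to 0.03 in F2 (limma adjusted p 0.902). The opposite sign came from A_55_P1961965 in F1 (interval from -0.04 to 0.24, limma adjusted p 0.477) and A_55_P2153251 in F2 (interval from -0.09 to 0.37, limma adjusted p 0.925). Ascl2, a maternally expressed basic helix-loop-helix factor needed for the placenta, was among the genes higher in MD F1. It read 8.08, 8.21 and 8.43 in CD F1 and 8.15, 8.51 and 8.80 in MD F1. Of the 6 MD arrays 5 lay above all CD arrays and 1 among them. The change was 0.30, with a limma adjusted p of 0.274 and an exact permutation p of 0.0238, and with no normalization it turned to -0.018. Within slides the change was 0.59, 0.23 and 0.07, and limma with slide as a block gave an adjusted p of 0.299, beside 0.190 to 0.436 over the arrays left out 1 at a time. In F2 Ascl2 read 6.99, 7.37 and 7.74 in CD and 6.44, 7.31 and 7.44 in MD, overlapping groups with a change of -0.25 and a limma adjusted p of 0.936, and without MD F2 replicate 3 the change was -0.11. The Ascl2 interaction was 0.54, with a limma adjusted p of 0.529 and, with slide as a block, 0.453.

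**Figure D3:**
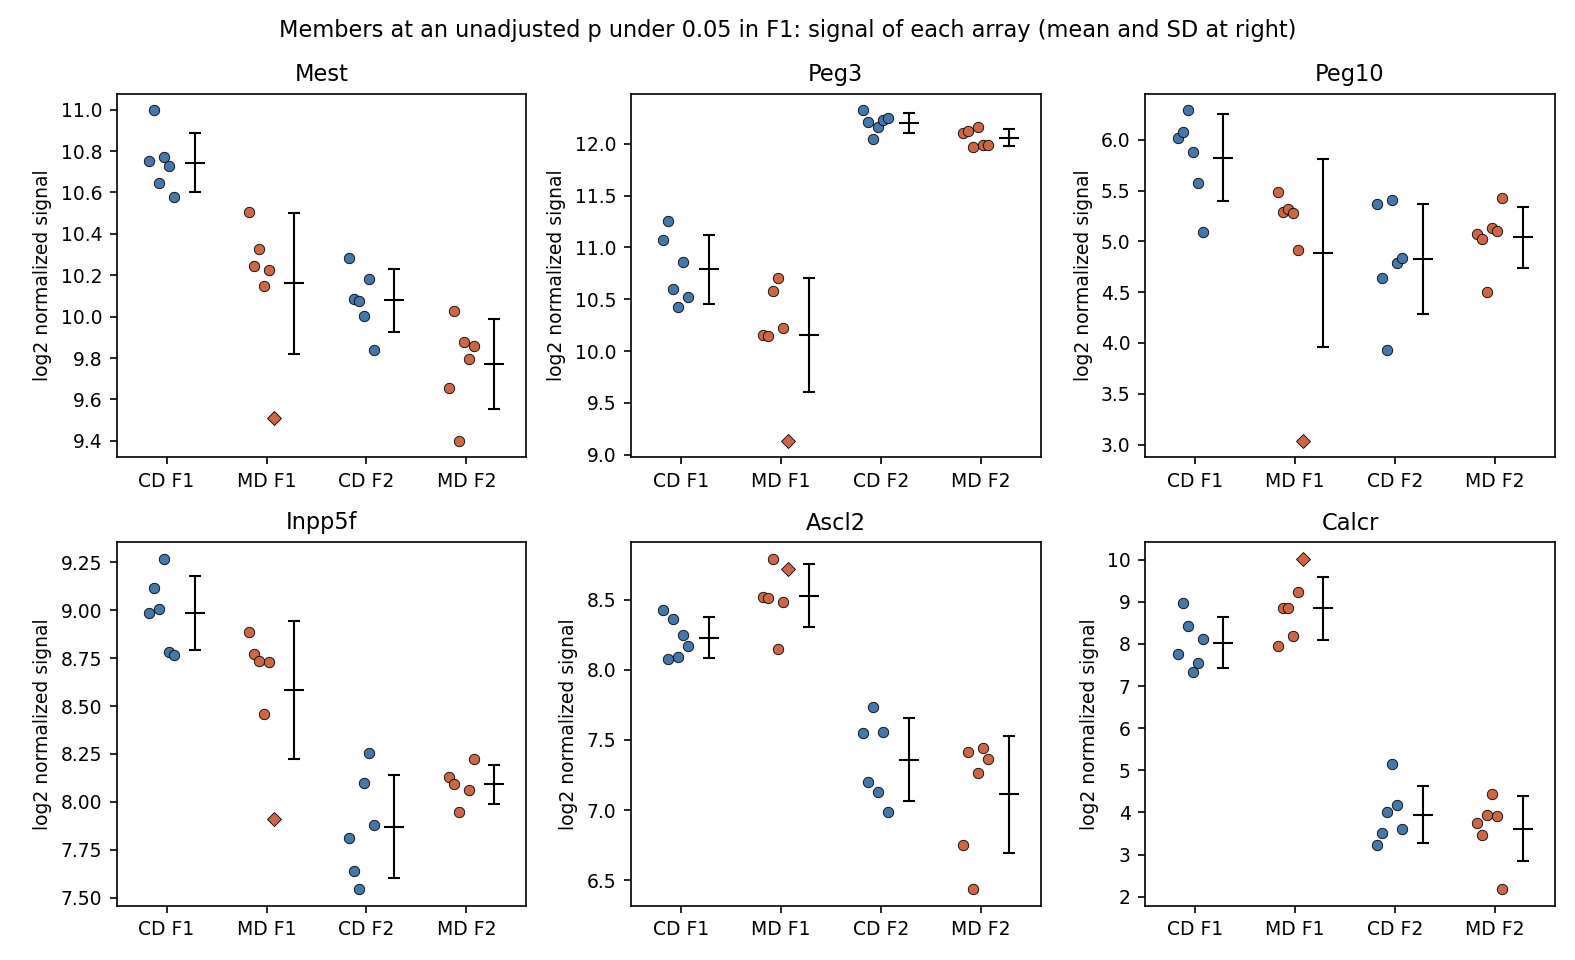
Log2 normalized signal of Mest, Peg3, Peg10, Inpp5f, Ascl2 and Calcr in the 4 groups, each array a point with the group mean and SD, CD in blue and MD in orange; MD F1 replicate 6 is the diamond. Mest, Peg3, Peg10 and Inpp5f have lower medians in MD F1 than in CD F1, while Ascl2 (8.21 against 8.51, a change of -0.018 with no normalization) and Calcr (7.94 against 8.85) have higher ones.

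Peg10, a paternally expressed gene derived from a retrotransposon and essential for the placenta, was close to background here. It read 5.10, 5.95 and 6.29 in CD F1 and 3.04, 5.28 and 5.49 in MD F1, where 5 of 6 arrays were above background. MD F1 replicate 6 was far below all others, and every MD array lay below 5 of the CD arrays. The log2 fold change was -0.93 (SE 0.38), with a limma adjusted p of 0.310 and an exact permutation p of 0.0173. Within slides it was -1.65, -0.59 and -0.57, and without MD F1 replicate 6 it was -0.56. Limma with slide as a block gave an adjusted p of 0.321, and over the arrays left out 1 at a time the limma adjusted p ran from 0.237 to 0.455. In F2 Peg10 read 3.93, 4.81 and 5.41 in CD and 4.50, 5.09 and 5.42 in MD, each with 5 of 6 arrays above background. The F2 groups overlapped, with a change of 0.21 and a limma adjusted p of 0.947, and without CD F2 replicate 3 the change was 0.033. The interaction was -1.17, with a limma adjusted p of 0.507 and, with slide as a block, 0.473. The further Peg10 probe gave a change of -0.20 in F1 (limma adjusted p 0.415), of -0.46 in F2 and an interaction of 0.33, so the F2 change and the interaction turned sign with the probe.

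Among enzymes, Inpp5f encodes an inositol phosphatase with a paternally expressed transcript in brain. It was counted here as paternally expressed, and which Inpp5f transcripts the probe reads was not tested. Inpp5f levels were 8.77, 8.998 and 9.27 in CD F1 and 7.91, 8.73 and 8.88 in MD F1. The groups overlapped only between the lowest CD and the highest MD arrays, and MD F1 replicate 6 was the lowest. The log2 fold change was -0.41 (SE 0.16), with a limma adjusted p of 0.296 and an exact permutation p of 0.0152, and within slides it was -0.63, -0.13 and -0.46. Limma with slide as a block gave an adjusted p of 0.310, the arrays left out 1 at a time gave 0.234 to 0.457, and without MD F1 replicate 6 the change was -0.27. In F2 the levels were 7.54, 7.84 and 8.25 in CD and 7.95, 8.09 and 8.23 in MD, where replicate 4 was left out for an irregular spot. The narrow MD range lay inside the upper part of the CD range, with a change of 0.22 and a limma adjusted p of 0.914, and with irregular spots kept the change was 0.64. The opposite signs gave Inpp5f an interaction of -0.63 (SE 0.21), with a limma adjusted p of 0.432 and, with slide as a block, -0.64 and 0.365. Over the other alternatives the interaction ran from -1.05 to -0.50, with a limma adjusted p from 0.182 to 0.697.

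Ube3a encodes the ubiquitin ligase lost in Angelman syndrome and is expressed from the maternal allele in neurons. It read 9.44, 9.50 and 9.56 in CD F1 and 7.40, 9.24 and 9.52 in MD F1. The 7.40 was MD F1 replicate 6, and the other 5 MD arrays ran from 9.13 to 9.52, 3 of them below all CD arrays. The change was -0.50 (SE 0.30), with a limma adjusted p of 0.453 and an exact permutation p of 0.0260, and without that array it was -0.18. In F2 Ube3a read 8.33, 8.47 and 8.90 in CD and 8.11, 8.54 and 8.69 in MD, overlapping groups with a 95% interval of the change from -0.33 to 0.23 and a limma adjusted p of 0.993. Asb4, the maternally expressed subunit of a ubiquitin ligase complex, read 6.00, 6.14 and 7.30 in CD F2 and 4.92, 5.92 and 6.14 in MD F2, where 5 of 6 arrays were above background. The highest CD array and the lowest MD array, MD F2 replicate 3, stood away. All MD arrays but MD F2 replicate 5 lay below every CD array. The Asb4 change in F2 was -0.60 (SE 0.25), with a limma adjusted p of 0.89 and an exact permutation p of 0.0173. Within slides it was -0.24, -1.29 and -0.26, limma with slide as a block gave an adjusted p of 0.825, and the further Asb4 probe gave a change of 0.21, of the opposite sign. In F1 Asb4 read 5.68, 6.08 and 6.99 in CD and 5.60, 5.80 and 6.50 in MD, with overlap, and the intervals lay from -0.74 to 0.22 for this probe and from -0.08 to 0.23 for the further one.

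Trappc9 and Herc3 are maternally expressed in brain, the first a subunit of a vesicle-tethering complex and the second a putative ubiquitin ligase. Their brightest probes overlapped between the diets in F1, with medians of 13.49 in CD and 13.53 in MD for Trappc9 and of 13.31 and 13.25 for Herc3. A dimmer probe of each did not overlap, and both were chosen here after their values were seen. Trappc9 probe A_55_P1974627 read 7.52, 7.70 and 7.95 in CD F1 and 6.69, 7.33 and 7.51 in MD F1. Its 95% interval ran from -0.72 to -0.15, with a limma adjusted p of 0.219. Herc3 probe A_55_P1971647 read 7.49, 7.57 and 7.85 in CD F1 and 6.51, 7.29 and 7.44 in MD F1, with an interval from -0.76 to -0.11 and a limma adjusted p of 0.257. Over all 65 measured probes of the imprinted genes in F1, 0 passed the limma test, 10 were at unadjusted p under 0.05 (14.4% of all probes) and 5 had groups that did not overlap (1.79% of all probes), namely 2 of Mest and 1 each of Peg3, Trappc9 and Herc3. In F2 0 of 64 probes passed the limma test, 6 were at unadjusted p under 0.05 (5.6% of all probes) and 1, a Mest probe, had groups that did not overlap (0.365% of all probes).

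The calcitonin receptor gene Calcr, maternally expressed in brain, codes for a G protein-coupled receptor. It read 7.33, 7.94 and 8.97 in CD F1 and 7.96, 8.85 and 10.03 in MD F1. The lower CD arrays lay below all MD arrays, 2 MD arrays lay above all CD arrays, and MD F1 replicate 6 was the highest. The log2 fold change was 0.82 (SE 0.36), with a limma adjusted p of 0.330 and an exact permutation p of 0.0628. It was 1.17, 0.77 and 0.52 within slides, and limma with slide as a block gave an adjusted p of 0.267. Without MD F1 replicate 6 it was 0.58, and over the arrays left out 1 at a time the limma adjusted p ran from 0.237 to 0.494. The unadjusted p was not under 0.05 in 8 of those 12 fits and in 3 of 14 other alternatives. In F2 the probe was near background, above it on 4 of 6 CD and 3 of 6 MD arrays. It read 3.22, 3.81 and 5.14 in CD F2 and 2.18, 3.83 and 4.43 in MD F2, with a change of -0.33 and a limma adjusted p of 0.951, and without MD F2 replicate 6 the change was -0.047. The Calcr interaction was 1.15, with a limma adjusted p of 0.597 and, with slide as a block, 0.471. Calcitonin receptor is abundant in hypothalamus, of which 10 markers were read, led by galanin (Gal), with 9 above background on F1 arrays and 3 to 9 on F2 arrays. Their summed log2 signal was 11.56, 11.60 and 11.67 in CD F1 and 11.65, 11.73 and 12.07 in MD F1, so that 5 of 6 MD sums lay above every CD sum. Their mean log2 signal did not overlap in F1, at 6.50 to 6.59 in CD and 6.61 to 7.09 in MD, and MD F1 replicate 6 was the highest for this mean as for Calcr. In F2 the median sums were 11.08 in CD and 11.20 in MD. Of these, 9 were measured in F1, 0 passed the limma test and Otp and Avp were higher in MD at unadjusted p under 0.05 (6.96% of all probes). In F2 8 were measured, 0 passed the limma test and Pomc was higher at unadjusted p under 0.05 (3.22% of all probes). Across the 12 F1 arrays, with group means removed, Calcr and the hypothalamic sum had a Pearson r of 0.035 and a rho of 0.056, with an adjusted permutation p of 0.917 for r, and in F2 r was -0.227 and rho -0.112, with an adjusted permutation p of 0.582 for r, and r was 0.254 within lh and -0.486 within rh arrays. Gal was the brightest of these markers on every array and weighs most in the sum. The relation of Calcr to the mean log2 signal of the markers was not tested. The part of hypothalamic RNA in the diet values of Calcr was not tested.

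In the growth axis, Igf2 is the ligand, expressed from the paternal allele in most tissues but from both alleles in the choroid plexus and the leptomeninges, its chief sources in brain. It was counted here with the paternally expressed genes. Its levels were 8.06, 8.65 and 9.14 in CD F1 and 7.22, 8.07 and 9.16 in MD F1. The MD arrays spread on both sides of the CD arrays, with a change of -0.34 and a limma adjusted p of 0.649, and with 1 array left out the change ran from -0.52 (without MD F1 replicate 3) to -0.13 (without MD F1 replicate 6). In F2 they were 8.84, 9.77 and 10.86 in CD and 8.19, 9.35 and 9.74 in MD. In F2 3 CD arrays lay above all MD arrays, with a change of -0.76 (SE 0.43) and a limma adjusted p of 0.912. Without CD F2 replicate 6 and MD F2 replicate 3 it was -1.06. Over the 14 other alternatives, that one among them, it ran from -1.37 to -0.65, with a lowest limma adjusted p of 0.325. Across the 12 F1 arrays with group means removed, Igf2 went with the sum of 10 leptomeningeal markers, led by decorin (Dcn), with a Pearson r of 0.818 (permutation p 0.00193, adjusted p 0.0116 by permutation over 6 such relations). Spearman's rho was 0.706, with a permutation p of 0.0219 and an adjusted permutation p of 0.0657. Without the 2 arrays farthest from the median r was 0.696, and with slide means removed it was 0.881. In F2 r was 0.478, with a permutation p of 0.169 and an adjusted permutation p of 0.254, and it was -0.321 within lh and -0.240 within rh arrays. For choroid plexus r was 0.637 in F1 (permutation p 0.0409, adjusted p 0.123), with a rho of 0.748 (permutation p 0.0142, adjusted p 0.0657), and without the 2 farthest arrays r was 0.629. In F2 r was 0.550 (permutation p 0.0882, adjusted p 0.176), and it was 0.00264 within lh and -0.529 within rh arrays. These 6 relations, of Igf2 and Calcr to marker sums, were chosen after the data were seen. The leptomeningeal sum ran 14.76, 14.91 and 15.31 in CD F1, 14.59, 14.87 and 15.13 in MD F1, 14.35, 14.89 and 15.27 in CD F2, and 14.27, 14.48 and 14.63 in MD F2. None of the 10 leptomeningeal or 10 choroid plexus markers passed the limma test in either generation, and Col1a1, Col1a2 and Slc13a4 were lower in MD F2 at unadjusted p under 0.05 (2.38% of all probes). The part of these tissues in the diet values of Igf2 was not tested.

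Cdkn1c, a maternally expressed inhibitor of the cell cycle, read 11.44, 11.84 and 12.33 in CD F1 and 11.26, 12.01 and 13.07 in MD F1, overlapping groups with a change of 0.21 that with no normalization was -0.032. The limma adjusted p was 0.758. With 1 array left out the change ran from 0.0054 (without MD F1 replicate 5) to 0.37 (without MD F1 replicate 4). Over the other alternatives it ran from -0.032 to 0.68. In F2 it read 10.07, 11.56 and 11.88 in CD and 9.95, 10.65 and 11.71 in MD. Low arrays stood in both F2 groups, and the change of -0.59 had a limma adjusted p of 0.919. Over the other alternatives the F2 change ran from -0.94 to -0.54. A likeness to the choroid plexus sum was noticed after the values were seen. CD F2 replicates 4 and 6 had Cdkn1c at 10.37 and 10.07 and choroid plexus sums of 11.44 and 12.16, where the other CD F2 sums were at least 17.66. MD F2 replicate 2 had the highest value of its group in both, 11.71 and 17.76. MD F2 replicates 4 and 5 had the lowest Cdkn1c of their group, 9.95 and 10.07, and the lowest sums, 11.75 and 11.68. In F1 replicate 4 was the lowest of its group in both, at 11.44 and 12.0025 in CD and 11.26 and 12.05 in MD. MD F1 replicates 5 and 3 had the highest Cdkn1c, 13.07 and 12.70, and the highest sums, 17.84 and 17.49. Not all arrays followed. MD F2 replicate 6 had the second-highest Cdkn1c of its group, 10.67, with a sum of 11.77. CD F1 replicate 5 had the highest sum of its group, 16.67, with Cdkn1c at 11.79, below the median. The part of choroid plexus in the diet values of Cdkn1c was not tested. Grb10 codes for an adaptor that dampens insulin and IGF receptor signalling and is paternally expressed in neurons. It read 8.02, 8.39 and 8.71 in CD F1 and 7.11, 8.13 and 8.38 in MD F1, with overlap, a change of -0.35 and a limma adjusted p of 0.430, and without MD F1 replicate 6, the lowest, the change was -0.18. In F2 Grb10 read 6.25, 6.50 and 6.92 in CD and 6.44, 6.57 and 7.27 in MD, with overlap, a change of 0.15 and a limma adjusted p of 0.943, and without MD F2 replicate 3 the change was 0.045. Of 14 further genes of IGF signalling, 12 were measured in each generation, and by limma 0 passed. In F1 0 of them were at unadjusted p under 0.05, beside 14.4% of all probes (median change -0.01), and in F2 1 was, beside 5.6%, namely Igfbp2, an IGF-binding protein (median change of the genes -0.06). Igfbp2 read 12.34, 13.68 and 14.30 in CD F2 and 12.03, 12.37 and 13.62 in MD F2, with overlap, a change of -0.93 and a limma adjusted p of 0.89. In 9 of the 12 fits with 1 array left out its unadjusted p was not under 0.05. The 5 F2 arrays with a choroid plexus sum of 17.66 or more (CD replicates 1, 2, 3 and 5 and MD replicate 2) had the 5 highest Igfbp2 values of F2, which was noticed after the values were seen, and the part of choroid plexus in its diet values was not tested.

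Gnas and Rasgrf1 act in signal transduction. Gnas, which codes for the stimulatory G protein alpha subunit and several alternative transcripts, read 16.89, 17.03 and 17.13 in CD F1 and 16.36, 17.09 and 17.35 in MD F1. MD F1 replicate 6 was low and the rest overlapped CD or lay above it, with a 95% interval of the change from -0.31 to 0.30 and a limma adjusted p of 0.991. In F2 Gnas read 16.71, 16.77 and 16.81 in CD and 16.71, 16.79 and 16.88 in MD, with an interval from -0.09 to 0.14 and a limma adjusted p of 0.984, while A_55_P2081323 had an interval from -0.49 to 0.09 (limma adjusted p 0.919). Rasgrf1, a paternally expressed activator of Ras in neurons with a part in memory, read 12.89, 13.10 and 13.29 in CD F1 and 12.95, 13.13 and 13.36 in MD F1. The groups shared nearly all of their range, with an interval from -0.16 to 0.23 and a limma adjusted p of 0.875. In F2 it read 13.46, 13.87 and 14.16 in CD and 13.63, 13.88 and 14.09 in MD, with an interval from -0.23 to 0.28 and a limma adjusted p of 0.997.

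The Dlk1-Meg3 cluster pairs a paternally expressed ligand of the Notch family with a maternally expressed long noncoding RNA. Dlk1 read 8.84, 9.14 and 9.51 in CD F1 and 8.603, 9.13 and 9.48 in MD F1, with an interval from -0.34 to 0.30 and a limma adjusted p of 0.968, while a further probe, A_55_P2105371, had an interval from -0.05 to 0.68 (limma adjusted p 0.406). In F2 it read 8.41, 9.16 and 9.74 in CD and 8.15, 9.62 and 9.81 in MD, with an interval from -0.51 to 0.92 and a limma adjusted p of 0.970. The Dlk1 groups of the brightest probe overlapped almost wholly in both generations. Meg3 was near the top of the array's scale, at 16.64, 16.83 and 17.20 in CD F1 and 16.88, 17.04 and 17.19 in MD F1. Its interval ran from -0.04 to 0.37, with a limma adjusted p of 0.439, and 4 CD arrays lay below all MD arrays. Its further probes lay the other way in F1, with intervals from -0.30 to 0.11 for A_52_P196568 (limma adjusted p 0.641) and from -0.59 to 0.12 for A_55_P2033407 (limma adjusted p 0.508). In F2 Meg3 read 15.37, 15.99 and 16.28 in CD and 15.44, 16.07 and 16.29 in MD, with an interval from -0.35 to 0.49 and a limma adjusted p of 0.993. A further Meg3 probe, A_52_P196568, read 15.21, 15.59 and 15.69 in CD F2 and 14.81, 15.12 and 15.54 in MD F2. On that probe 4 MD arrays lay below all CD arrays, with an interval from -0.63 to -0.07, a limma adjusted p of 0.89 and an exact permutation p of 0.0216.

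In the Prader-Willi and Angelman cluster, Snrpn codes for a splicing protein of neurons and Ndn for necdin, a regulator of neuronal growth, both paternally expressed. Snrpn read 14.01, 14.21 and 14.40 in CD F1 and 13.95, 13.98 and 14.54 in MD F1. Of the MD arrays 4 lay below all CD arrays, 1 among them and 1 above them, with a change of -0.13 and a limma adjusted p of 0.615, and without MD F1 replicate 4 the change was -0.21. A further probe, A_55_P1998194, had an interval from -0.52 to 0.0012 in F1, with a limma adjusted p of 0.347 and an exact permutation p of 0.00866. In F2 Snrpn read 14.50, 14.85 and 15.10 in CD and 14.54, 14.73 and 14.80 in MD, with overlap, a change of -0.11 and a limma adjusted p of 0.936, and without CD F2 replicate 1 the change was -0.056. Ndn read 10.82, 11.19 and 11.57 in CD F1 and 10.91, 11.11 and 11.45 in MD F1, with an interval from -0.37 to 0.26 and a limma adjusted p of 0.873. In F2 Ndn read 12.03, 12.55 and 13.01 in CD and 11.50, 12.45 and 12.84 in MD, with an interval from -0.68 to 0.36 and a limma adjusted p of 0.969. Ndn thus overlapped between the diets in both generations.

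Nnat, the paternally expressed gene of a small membrane protein that affects calcium handling, read 13.64, 13.77 and 13.91 in CD F1 and 13.39, 13.66 and 13.84 in MD F1. The change was -0.13, with a limma adjusted p of 0.442, and without MD F1 replicate 6 it was -0.083. In F2 it read 13.46, 14.24 and 14.86 in CD and 13.53, 13.76 and 14.41 in MD, with a change of -0.29 and a limma adjusted p of 0.936, and with 1 array left out the change ran from -0.43 (without CD F2 replicate 5) to -0.15 (without CD F2 replicate 1). Nnat groups overlapped in both generations, and the CD F2 arrays spread the most. Commd1, maternally expressed in brain and known for its part in copper handling and protein turnover, read 11.42, 11.60 and 11.83 in CD F2 and 11.76, 11.78 and 11.92 in MD F2. The MD arrays sat close together, and 5 of the 6 CD arrays lay below all of them. The change was 0.19 (SE 0.08), with a limma adjusted p of 0.89 and an exact permutation p of 0.0281, and within slides it was 0.28, 0.02 and 0.25. Limma with slide as a block gave an adjusted p of 0.819, and in 6 of the 12 fits with 1 array left out the unadjusted p was not under 0.05. In F1 Commd1 read 12.13, 12.24 and 12.33 in CD and 12.13, 12.25 and 12.55 in MD, with overlap.

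The remaining measured genes had an unadjusted limma p above 0.05 on their brightest probe in both generations and in the interaction. The paternally expressed ones were Rtl1, Dio3, Airn, Usp29, Magel2, Mkrn3, Sgce, Nap1l5, Zrsr1, Mcts2 and Impact. The maternally expressed ones were Igf2r, Zim1, Atp10a, Slc22a18, Ppp1r9a, Copg2, Blcap, Herc3 and Trappc9. Among them, Dio3 inactivates thyroid hormone, Igf2r clears IGF2 from the cell surface, Ppp1r9a codes for neurabin of dendritic spines, and Airn is the noncoding RNA that silences Igf2r on the paternal allele outside neurons. Igf2r had an exact permutation p of 0.0281 in F1, with an interval from -0.0063 to 0.27 and a limma adjusted p of 0.361.

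Neighbours in a cluster were compared array by array, since a shared control region can set them for or against each other. The 10 measured pairs gave 20 relations over the 2 generations, each across 12 arrays with group means removed, and their p were adjusted over the 20. Snrpn and Ube3a ran against each other in F2, with a Pearson r of -0.784 (permutation p 0.00072, adjusted p 0.0144 by permutation) and a Spearman rho of -0.748 (permutation p 0.00281, adjusted p 0.0562 by permutation). On the brightest probe of each gene, arrays with more of the paternally expressed Snrpn had less of the maternally expressed Ube3a. Without the 2 arrays farthest from the median r was -0.671, with slide means removed it was -0.757, and it was -0.565 within lh and -0.965 within rh arrays. Without CD F2 replicate 6 and MD F2 replicate 3 it was -0.770. In F1 r was 0.371, with a permutation p of 0.212, and 0.702 without MD F1 replicate 6, and whether F1 and F2 differ in this relation was not tested. On CD F2 replicate 5 Ube3a was the highest of its group, 8.90. There the brightest Snrpn probe and A_55_P1998194 were the lowest, 14.50 and 12.59, while A_55_P1990116, at 11.36, was above its median of 11.27. On MD F2 replicate 3 Ube3a was 8.25, below its median of 8.54. There the brightest Snrpn probe was the highest, 14.80, and A_55_P1990116 the lowest, 11.05. The relation of Ube3a to the further Snrpn probes was not tested.

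Nnat and Blcap, which lies around Nnat and codes for a regulator of apoptosis, went together in F2 with a Pearson r of 0.804 (permutation p 0.00869, adjusted p 0.0747 by permutation). Their rho was 0.762, with an adjusted permutation p of 0.107, and r was 0.811 without the 2 farthest arrays and 0.723 with slide means removed. Zrsr1, a paternally expressed splicing factor gene inside an intron of Commd1, went with Commd1 in F2 with a Pearson r of 0.723 (permutation p 0.0112, adjusted p 0.0747 by permutation). Their rho was 0.727, with an adjusted permutation p of 0.107, and r was 0.671 without the 2 farthest arrays and 0.796 with slide means removed. In F1 r was 0.078 for Nnat and Blcap and -0.066 for Zrsr1 and Commd1, and without MD F1 replicate 6 it was 0.818 and 0.447. Airn and Igf2r ran against each other in F1, with a Pearson r of -0.781 (permutation p 0.016, adjusted p 0.08 by permutation) and a rho of -0.497 (adjusted permutation p 0.329). That relation rested on MD F1 replicate 6 and CD F1 replicate 5, since r was -0.358 without them, and in F2 it was 0.239.

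**Figure D4:**
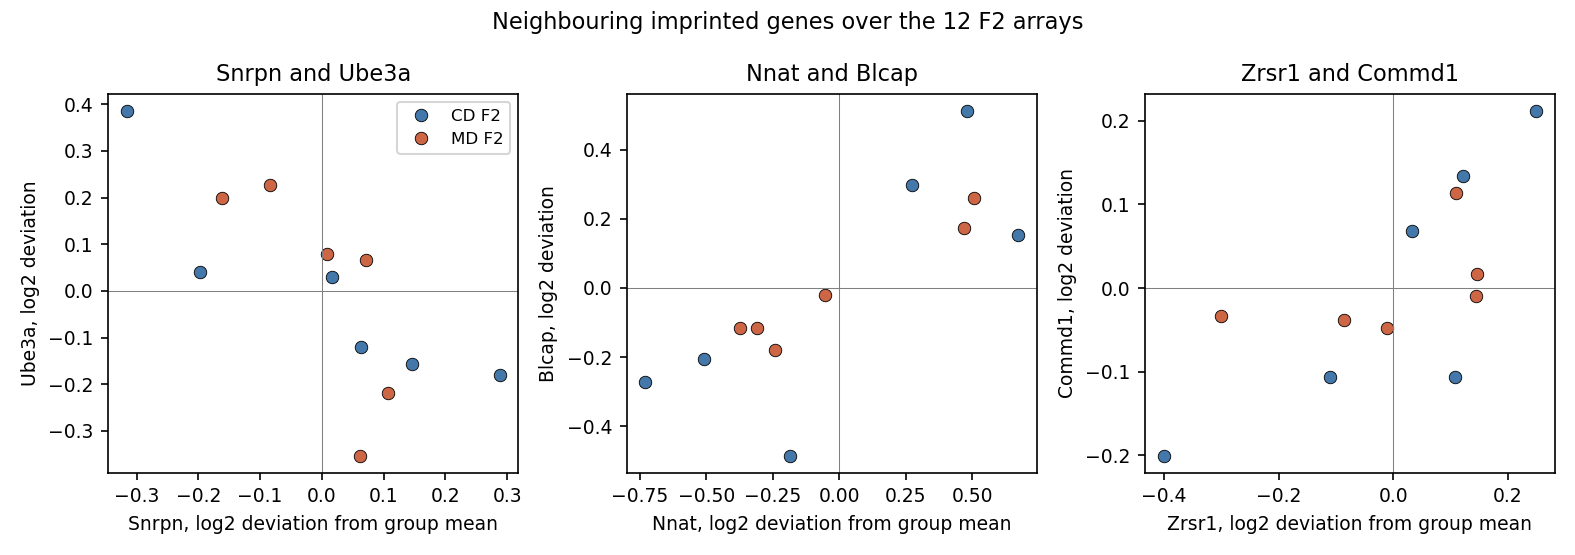
Deviation of each of the 12 F2 arrays from its group mean, in log2 units, for Snrpn against Ube3a, Nnat against Blcap and Zrsr1 against Commd1. The brightest probe of each gene is drawn, with CD in blue and MD in orange. Snrpn and Ube3a slope downward (r = -0.784), while Nnat and Blcap (r = 0.804) and Zrsr1 and Commd1 (r = 0.723) slope upward.

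Of 15 genes that set or keep imprints, 14 were measured in each generation, and by limma 0 passed. In F1 1 of the 14 was at unadjusted p under 0.05, where 14.4% of all probes were (median change of the genes -0.03), and in F2 0 were, beside 5.6% (median change 0.03). The 1 in F1 was Zfp445, a zinc-finger protein that guards imprints, at 11.96, 12.15 and 12.29 in CD and 10.46, 11.76 and 11.96 in MD. The groups met only at 11.96, MD F1 replicate 6 was the lowest, and the change was -0.56, with a limma adjusted p of 0.294 and an exact permutation p of 0.00649. Without that array the change was -0.34, and in 0 of the 12 fits with 1 array left out was the unadjusted p at 0.05 or above. Over 13 other alternatives the change ran from -0.82 to -0.15, and in 1 of them the unadjusted p was not under 0.05. The limma adjusted p ran from 0.0799 to 0.746 over these alternatives.

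Of 30 further imprinted genes, 28 had a probe and 26 were measured in each generation, with Rian and Zim3 unmatched, and by limma 0 passed. In F1 3 were lower (Zdbf2 and Ddc among them) and 3 higher (Mirg, H13 and Slc38a4) at unadjusted p under 0.05, beside 7.48% and 6.96% of all probes, and the median change was -0.03. Zdbf2, a paternally expressed gene tied to growth through the hypothalamus, read 9.30, 9.42 and 9.68 in CD F1 and 8.67, 9.13 and 9.33 in MD F1. The Zdbf2 groups met only at their edges, with a change of -0.39 and a limma adjusted p of 0.219. Over 13 other alternatives the Zdbf2 change ran from -0.70 to -0.20, and in 1 of them the unadjusted p was not under 0.05. Ddc, the decarboxylase that makes dopamine and serotonin, had a change of -0.26 and a limma adjusted p of 0.340. Mirg, a noncoding RNA of the Dlk1-Meg3 cluster, had a change of 0.16 (limma adjusted p 0.296), which with no normalization was -0.039. H13, a signal peptide peptidase gene, had a change of 0.19 (limma adjusted p 0.313), which with no normalization was -0.019. Slc38a4, an amino acid transporter gene, had a change of 0.30 (limma adjusted p 0.319), which with no normalization was -0.10. In F2 2 of the 26 were lower at unadjusted p under 0.05 (2.38% of all probes), Osbpl5 with a change of -0.21 and the paraoxonase gene Pon3 with a change of -0.78, each with a limma adjusted p of 0.89, and the median change was -0.07. Over the 12 fits with 1 array left out, the unadjusted p was not under 0.05 in 8 for Ddc, 5 each for H13 and Slc38a4, 2 for Mirg and 0 for Zdbf2 in F1, and in 3 for Pon3 and 0 for Osbpl5 in F2.

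Markers of hippocampal neurons, striatum and thalamus were read in the same way, and by limma 0 of each list passed in either generation. At unadjusted p under 0.05 stood 7.48% of all probes lower in MD F1, 2.38% lower in MD F2 and 3.22% higher in MD F2. Of the 10 hippocampal neuron genes, Man1a and Wfs1 were lower in MD F1 at unadjusted p under 0.05, with limma adjusted p of 0.159 and 0.214. In F2 0 were. The median change of the 10 genes was -0.15 in F1 and -0.04 in F2. Of the 8 striatal markers, whose median sums were 13.81 in CD F1, 13.99 in MD F1, 13.95 in CD F2 and 13.72 in MD F2, Drd1 was lower in MD F1 at unadjusted p under 0.05. In MD F2 Ppp1r1b was lower and Drd1 and Penk higher. Of the 6 thalamic markers, with median sums of 12.55, 12.46, 12.20 and 12.34 in the same order, Tcf7l2 was lower in MD F1 at unadjusted p under 0.05 and 0 were in F2. Their part in the values of the imprinted genes was not tested.

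The sex mix of the pools was read from Xist, the noncoding RNA of the inactive X chromosome, and 4 genes of the Y chromosome (Ddx3y, Eif2s3y, Kdm5d and Uty). In F1 all 5 genes were above background on every array, so each F1 pool held RNA of both sexes. Xist read 10.81, 10.93 and 10.999 in CD F1 and 9.03, 10.65 and 10.98 in MD F1, with MD F1 replicate 6 the lowest. The interval of the change ran from -1.17 to 0.06, with a limma adjusted p of 0.381. In F2 Xist was above background on CD replicates 3 and 5 and MD replicate 6 only. On those arrays Ddx3y lay between 1.63 and 1.79 and Eif2s3y between 3.12 and 3.77, where the others ran from 10.36 to 11.23 and from 10.90 to 11.61. Y-linked signal was not fully absent there, since on CD F2 replicate 5 2 of the 4 Y-linked genes, Eif2s3y and Kdm5d, were above background. By limma 0 of the 5 genes passed in either generation. At unadjusted p under 0.05, 2 were higher in MD F1 (Eif2s3y and Kdm5d), beside 6.96% of all probes, and 0 in F2, beside 3.22%. With the Y-linked minus Xist signal as a covariate the F1 change of Mest was -0.32, and 0 of the 40 genes passed the limma test. With it 4 of the 40 genes were at unadjusted p under 0.05, beside 9.94% of all probes. Fitted in that way, the change was -0.35 for Peg3, -0.30 for Peg10, -0.11 for Inpp5f, 0.30 for Ascl2 and 0.42 for Calcr. Igf2, Grb10 and Ube3a turned sign, to 0.21, 0.013 and 0.029. Of the 14 other alternatives of F1, this fit among them, some gave an unadjusted p not under 0.05. These were 3 for Calcr, 2 each for Peg10 and Ascl2, and 1 each for Mest, Peg3 and Inpp5f. In F2 the changes were -0.30 for Mest, -0.61 for Asb4 and 0.19 for Commd1 with the covariate.

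Promoter sequences (250 bases before to 50 after a transcript's start, from RefSeq on GRCm38.p6) were found for 35 of the 42 genes, 52 promoters in all. They were searched for TGCCGC, the hexamer that ZFP57 recognizes when its CpG is methylated, on both strands (TGCCGC or GCGGCA). It was present in 14 of the 52 promoters (26.9%), against 3813 of all 32841 promoters (11.6%). Of the 14, 2 are Mest starts that lie 3 bases apart and hold the same matches. The median number of CpG was 16.5 in promoters of imprinted genes and 7 in all promoters. By allele, 8 of 26 promoters of paternally expressed genes (30.8%) and 5 of 20 of maternally expressed genes (25%) held the hexamer. A match describes letters in this window and no binding or methylation was measured. Of the genes lower or higher in MD F1, Mest and Calcr held it, though not in all of their promoters. Peg3, Inpp5f and Ascl2 did not hold it, and Peg10 had no entry. A further Calcr promoter (chr6:3764664-3764963, - strand) had 0 matches and 4 CpG and is not shown. Mest is shown at its main promoter (chr6:30737800-30738099, + strand, 2 matches, 17 CpG) and at a start farther upstream (chr6:30733256-30733555, + strand, 0 matches, 8 CpG), since 1 of its probes differed from the others in F1. Calcr (chr6:3763574-3763873, - strand, 2 matches, 29 CpG) is shown as the gene with the largest change upward in F1, and Peg3 (chr7:6730370-6730669, - strand, 0 matches, 13 CpG) as a paternally expressed gene without the hexamer. Capitals mark TGCCGC or GCGGCA.
Mest main promoter: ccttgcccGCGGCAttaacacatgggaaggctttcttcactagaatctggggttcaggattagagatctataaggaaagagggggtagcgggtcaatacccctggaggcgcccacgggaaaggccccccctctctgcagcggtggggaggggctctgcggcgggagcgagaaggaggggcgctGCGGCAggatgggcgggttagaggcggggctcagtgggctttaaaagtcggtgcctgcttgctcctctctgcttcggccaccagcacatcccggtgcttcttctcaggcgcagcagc
Mest upstream promoter: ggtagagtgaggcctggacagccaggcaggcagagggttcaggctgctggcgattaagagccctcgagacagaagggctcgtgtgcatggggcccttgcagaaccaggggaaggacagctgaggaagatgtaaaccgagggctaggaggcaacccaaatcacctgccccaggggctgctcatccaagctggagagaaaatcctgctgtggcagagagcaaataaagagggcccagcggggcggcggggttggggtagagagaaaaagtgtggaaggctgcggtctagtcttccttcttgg
Calcr promoter: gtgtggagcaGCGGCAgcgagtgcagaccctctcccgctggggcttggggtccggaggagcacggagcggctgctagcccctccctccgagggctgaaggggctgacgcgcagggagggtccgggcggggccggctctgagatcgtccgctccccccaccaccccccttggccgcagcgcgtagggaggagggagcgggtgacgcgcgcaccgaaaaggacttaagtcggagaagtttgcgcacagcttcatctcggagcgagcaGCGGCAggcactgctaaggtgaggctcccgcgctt
Peg3 promoter: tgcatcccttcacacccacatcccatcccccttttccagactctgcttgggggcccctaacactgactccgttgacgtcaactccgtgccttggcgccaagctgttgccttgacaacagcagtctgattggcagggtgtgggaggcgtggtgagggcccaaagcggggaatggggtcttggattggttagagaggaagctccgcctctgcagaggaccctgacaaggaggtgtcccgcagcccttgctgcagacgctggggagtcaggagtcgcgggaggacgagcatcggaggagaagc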

How the data were processed

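Hippocampal RNA of 24 pools of 4 mice was read on single-colour Agilent arrays. Per the file headers, the deposited intensities (processed signal) were background-subtracted and detrended within each array by Feature Extraction 10.7.3.1 and not scaled between arrays. The authors' processed table of intensities, quantile-normalized within a generation, served as an alternative.

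In R 4.3.3 with limma 3.58.1 (files read with data.table, version 1.17.8), irregular spots were left out, the log2 signal was quantile-normalized within a generation (over all 24 arrays for the interaction), and repeat spots of a probe were averaged. Diet groups of 6 pools, the replicates behind every p, were compared with limma over all probes (Benjamini-Hochberg, false discovery rate under 0.1), and single genes also with a two-sided exact permutation test of group means. Correlations used 100000 permutations within groups. An interval is limma's at 95%.

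Full values are given for 15 genes set by name (Igf2, H19, Dlk1, Meg3, Peg3, Snrpn, Ube3a, Ndn, Nnat, Mest, Plagl1, Cdkn1c, Grb10, Gnas, Rasgrf1) and for every other gene at unadjusted p under 0.05 in any comparison. From the lists of imprint maintenance, IGF signalling and further imprinted genes, at most 5 genes per generation at unadjusted p under 0.05 are named. The members and lists were chosen with earlier results of these data known.

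Alternatives were scaling to the 75th percentile, no normalization, normexp background (offset 50, on the median signal because the files hold no mean signal), the authors' table, a filter on dim probes, irregular spots kept, slide or replicate number as a block, a sex measure as a covariate, all arrays fitted together, array weights, the second-brightest probe, a false discovery rate under 0.05, and leaving out each array or those that stand apart. Averaging repeat spots before normalization was added after the data were seen. The code was tested on simulated data.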

Additional observations from a re-analysis of the deposited data

Results flagged for a closer look

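In each of 116 sets of arrays (a gene or marker sum within 1 group) the gap between the most extreme array and its neighbour was divided by the range, and 13 passed the critical value, where about 1 in 20 would by chance. MD F1 replicate 6 accounted for 8 of the 13. On that array Ube3a was 7.40 with the next array at 9.13 (ratio 0.816), Peg10 was 3.04 with the next at 4.91 (0.764), and Peg3 was 9.13 with the next at 10.14 (0.644). Mest was 9.51 there with the next array at 10.15 (0.64), Grb10 was 7.11 with the next at 7.96 (0.672), and Gnas was 16.36 with the next at 17.03 (0.672). Commd1 was the one gene of these that was high on it, at 12.55 with the next array at 12.28 (0.633). The sum of hippocampal neuron markers on the same array was 15.54 with the next at 15.94 (0.867).

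The other 5 lay on other arrays. Asb4 was 4.92 on MD F2 replicate 3, with the next array at 5.73 (0.659). The choroid plexus sum was 12.0025 on CD F1 replicate 4, with the next at 15.45 (0.74). The hypothalamus sum was 12.07 on MD F1 replicate 2, with the next at 11.77 (0.716). The striatum sum was 13.699 on MD F1 replicate 4, with the next at 13.96 (0.627), and 14.002 on MD F2 replicate 2, with the next at 13.78 (0.716).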

How the results depend on the processing

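Over 39 settings 1397 values were compared with the first fit, and 1363 stayed within set limits and 34 did not. The limits were the same sign and side of the threshold for a gene, a factor of 1.5 for a count, and the spread between arrays for a median. The maternal median of F1 crossed 0 within its limit (-0.0063 without MD F1 replicate 6). By limma 0 imprinted genes passed in F2 and in the interaction under every setting. In F1 the count of 0 became 6 with no normalization (7952 of all 39429 probes passed), 1 without the arrays that stand apart (152 of all probes) and 1 with array weights (540 of all probes), and it ran from 0 to 1 when 1 array was left out (1 without MD F1 replicate 6). The count at unadjusted p under 0.05 in F1 was 12 with no normalization, where 35.3% of all probes were, and ran from 4 to 11 with 1 array left out (11.2% or 11.1% of all probes for the 4, 15% for the 11). In F2 that count was 1 with no normalization (1.39% of all probes) and 8 with array weights (11.8%), and it ran from 2 to 5 with 1 array left out (6.28% or 6.79% for the 5). With no normalization the F1 medians were -0.33 for paternally and -0.18 for maternally expressed genes.

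With no normalization 5 of the printed changes in F1 turned sign: Mirg (-0.039), H13 (-0.019), Slc38a4 (-0.10), Cdkn1c (-0.032) and Ascl2 (-0.018). Genes given by interval or without a printed change were not listed here. By the maternal median at least 2 further maternally expressed genes turned sign too. With the sex measure as a covariate Igf2 (0.21), Grb10 (0.013) and Ube3a (0.029) turned sign in F1. With the second-brightest probe Peg10 (-0.46) and Asb4 (0.21) turned sign in F2, as did the interactions of Peg10 (0.33) and Mest (0.40). Among genes given by interval, Dlk1, Meg3 and Asb4 in F1 and Meg3 and Gnas in F2 also turned sign with that probe. The cause was not tested.

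With the replicate number as a block 0 of the 40 genes passed the limma test in F1 and in F2, and 6 and 2 were at unadjusted p under 0.05, beside 13.4% and 5.07% of all probes. Arrays of the same replicate number in CD and MD had a correlation over 0.1 in 1 of 6 pairs in F1 and 3 of 6 in F2, so they were not treated as pairs. Signal near background limits Peg10, Asb4 and, in F2, Calcr. With 6 pools a group, small differences could not be told from 0.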
